A study of Mus musculus with 20 samples.

Results

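The clustered histone genes are the protein-coding genes of the table whose symbols begin with Hist1h, Hist2h, Hist3h or Hist4h. There were 56 of them among 26440 genes, namely 5 of the linker histone H1, 16 of H2A, 16 of H2B, 9 of H3 and 10 of H4. They lie on chromosome 13 (44 genes), chromosome 3 (9 genes), chromosome 11 (2 genes) and chromosome 6 (1 gene). A further matching row, Hist1h2al, is listed as a processed pseudogene and was left out. Messenger RNA of C57BL/6N mouse hearts had been profiled in 20 SMART-Seq2 libraries, each from the tissue of 1 animal. The knockout (KO) mice are labelled MyHC-Creld1 KO, that is, Creld1 was removed from heart muscle cells with a myosin heavy chain driver, and other heart cells keep the gene. Each KO animal shares a litter label with the wild-type (WT) animal of the same replicate number, and the labels name no further alleles for either genotype. At postnatal day 3 (P3) ventricles and atria were taken from 3 KO and 3 WT pups, each pup giving both tissues, and at embryonic day E13.5 whole hearts were taken from 4 KO and 4 WT embryos, of which replicates 2 and 3 share 1 litter.

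Histones H2A, H2B, H3 and H4 form the core of the nucleosome, and H1 binds the DNA between nucleosomes. Most clustered histone genes are transcribed in S phase, when new DNA has to be packaged, and their mRNAs end in a stem-loop that binds the protein SLBP instead of a poly(A) tail. Some of these genes also give transcripts that run past the stem-loop and are polyadenylated, above all in cells that have left the cell cycle. SMART-Seq2 starts cDNA synthesis on A stretches with an oligo(dT) primer, so transcripts without a tail are poorly captured, and the values below are not the full histone mRNA of a heart.

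The stem-loop, searched by the consensus of the replication-dependent histone mRNAs in the longest coding transcript of each gene (GENCODE M21, GRCm38, the assembly that mm10 names), was present in 37 of the 56 genes. It is shown for the members on which the results turn, because its distance from the annotated end separates a transcript that stops there from one that runs on. The stem-loop is in capitals and its flanks in lower case.
Hist1h2ap, chr13:21833029-21833044, minus strand: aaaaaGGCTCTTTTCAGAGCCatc
Hist1h1c, chr13:23739512-23739527, plus strand: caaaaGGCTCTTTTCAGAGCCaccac
Hist3h2a, chr11:58955172-58955187, plus strand: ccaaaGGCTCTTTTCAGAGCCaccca
Hist3h2ba, chr11:58949349-58949364, plus strand: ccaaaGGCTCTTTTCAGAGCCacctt
Hist1h4h, chr13:23531458-23531473, plus strand: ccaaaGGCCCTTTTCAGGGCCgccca
Hist1h4i, chr13:22040966-22040981, minus strand: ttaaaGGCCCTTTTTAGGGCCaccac
The sequence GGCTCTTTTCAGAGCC was shared by 23 members, and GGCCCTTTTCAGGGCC by 6, all of them H4 genes. The annotated Hist1h2ap transcript ended 3 bases after the stem-loop, that of Hist1h4h 46 bases after it and that of Hist3h2ba 169 bases after it. The transcripts of Hist1h4i, Hist1h1c and Hist3h2a ran on for 330, 840 and 1643 bases. In Hist1h2ap (chr13:21833029-21833056) and Hist1h2ao (chr13:21810886-21810913), 2 of the 37 genes, an unbroken run of 12 A, in lower case here, stood directly before the stem-loop.
Hist1h2ap and Hist1h2ao: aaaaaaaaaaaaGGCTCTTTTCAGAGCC
No other member had 8 or more A in that place. Whether cDNA synthesis started in this run was not tested.

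The libraries held an estimated 5138353 to 20669361 reads each, and 1 read was worth 0.562 to 2.21 units of normalized signal, the unit of all levels below. Both atrial libraries of replicate 3 stood apart, with the lowest total signals and the highest numbers of genes above 0. The WT atrial library of replicate 2 held 9242 units of Myl2, the ventricular myosin light chain, against 21.7 and 40.8 in the other WT atria. Creld1 measured 19.9, 59.3 and 51.9 in KO ventricles against 62.2, 59.7 and 130 in WT ventricles. It measured 23.1, 26.6 and 82.4 in KO atria against 105, 21.6 and 146 in WT atria. At E13.5 it measured 70.9, 7.48, 38.4 and 4.64 in KO hearts against 66.0, 92.2, 60.8 and 34.0 in WT hearts. The genotypes overlapped in every tissue except ventricles, where the KO library of replicate 2 lay just under the lowest WT library, and the library labelled KO replicate 1 at E13.5 was above 3 of 4 WT hearts. The Creld1 difference was -0.97 in ventricles, -0.89 in atria and -1.66 at E13.5, and limma called none of them (adjusted p = 1 each). Atrial markers (6 of 10 called lower in ventricles than in atria of the same pups in either genotype, among them Myl7 and Sln) fitted the tissue labels.

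All 56 members together gave 1000 to 3690 units per library (median 1653), which was 0.00888 to 0.0559% of a library's signal. No member was listed at 0 in every library, 6 were above 0 in all of them (Hist1h2ap, Hist1h2bc, Hist3h2a, Hist1h1c, Hist1h4i and Hist1h1d), and 31 reached 10 units in at least 3 libraries and were tested. The 31 were 4 of H1, 9 of H2A, 10 of H2B, 4 of H3 and 4 of H4. Between 21 and 45 members were above 0 in a single library. H2A held 25.9 to 65.2% of the member signal and H2B 23.9 to 50.7%, whereas H3 held 0 to 4.22% and H4 1.42 to 9.08%, although all 4 proteins stand in equal numbers in a nucleosome. The 5 members with the highest means, Hist1h2ap, Hist1h2bc, Hist3h2a, Hist1h1c and Hist2h2be, carried 70.9 to 88.0% of the member signal (median 80.5%).

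**Figure D1:**
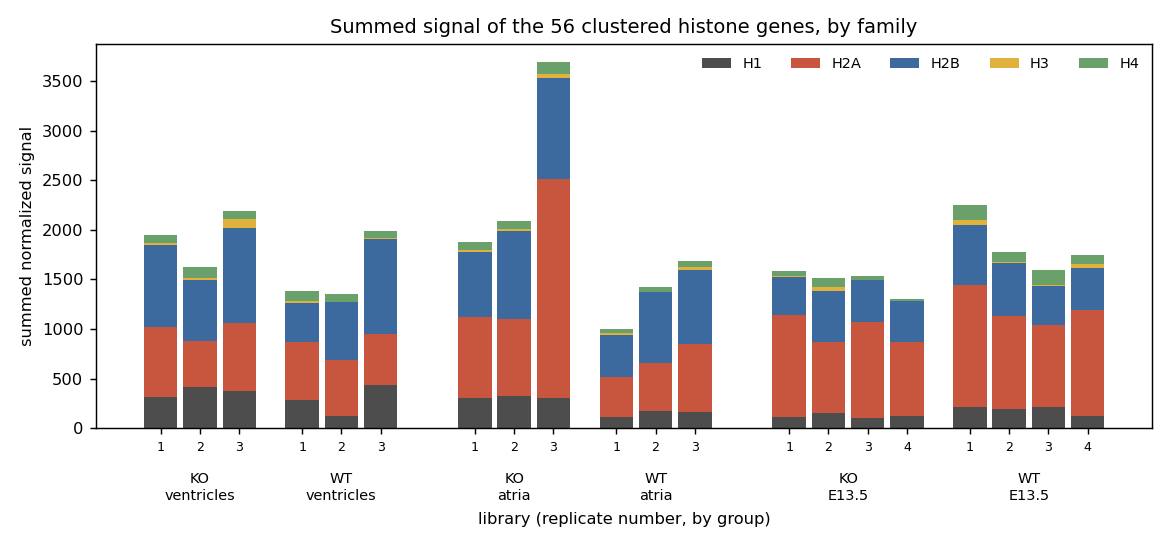
Normalized signal summed over the 56 members in each library (bars from 0, 1 per library, coloured by histone family), in groups of KO and WT ventricles, KO and WT atria, and KO and WT E13.5 hearts. The KO atrial library of replicate 3 has the highest sum, 3690 units, and the WT atrial library of replicate 1 the lowest, 1000 units.

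Per 1000 bases of transcript, Hist1h2ap averaged 1043 units over all libraries, Hist1h2bc 384, Hist1h1c 123, Hist3h2a 99.7, Hist1h4h 52.0, Hist3h2ba 50.6, Hist1h4i 32.5 and Hist2h2be 26.7. Hist1h2ao, with the same run of 12 A before its stem-loop as Hist1h2ap, averaged 46.6. Hist1h2bc, an H2B gene with an annotated second exon, and Hist2h2be, another H2B gene, have no stem-loop in the transcript used here. Hist1h2bc, Hist2h2be, Hist3h2a and Hist1h1c belong to a list of 6 histone genes known for polyadenylated transcripts in differentiated cells. The other 2, Hist1h2ac and Hist4h4, averaged 2.52 and 3.54 units per 1000 bases. The Hist1h2ac transcript holds a run of 15 A, 808 bases after its stem-loop. Of 20 members whose transcript ran over 100 bases past the stem-loop, 17 reached the level for testing. Of 17 members ending within 100 bases of it 8 did, and of 19 without it in the annotated transcript 6 did. Several of the 19, such as Hist1h1b, Hist1h2ai and Hist1h2an, have annotated transcripts with 0 bases after the stop codon. No stem-loop could be found in these, whether or not the gene has it. The mean signal had a median of 8.27 units over the members of the first set, 3.91 over those of the second and 1.14 over those of the third. Per 1000 bases the medians were 4.12, 8.28 and 2.99, so that the order of the first and second sets depends on whether the length is divided out.

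**Figure D2:**
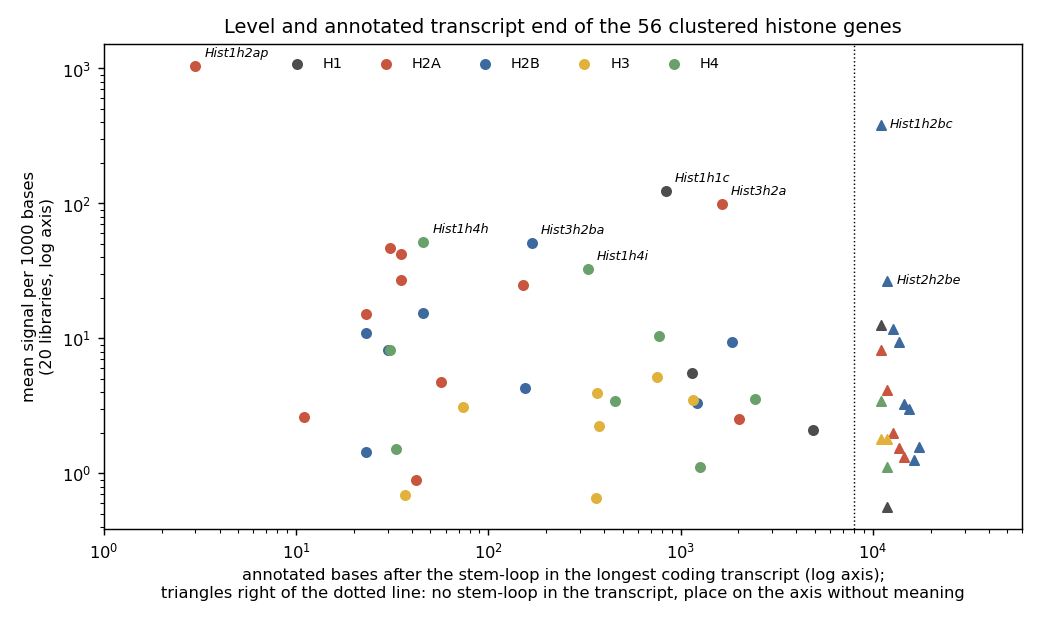
Mean signal per 1000 bases of transcript (log axis, 20 libraries) against the annotated bases after the stem-loop (log axis). Each point is 1 member, coloured by family. The 19 members without a stem-loop in the annotated transcript are triangles at the right. Hist1h2ap, which ends 3 bases after its stem-loop, is the highest point at 1043 units per 1000 bases.

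Hist1h2ap and its relatives share sequence, which limits the split between them. Of the 50-base words of the Hist1h2ap transcript 93.1% occur in other genes (24 genes). The share was 93.5% for Hist1h2ao, 99.8% for Hist1h2br, and 100% for Hist2h2aa2 and Hist2h3c1. The shares were 30.1% for Hist1h2bc, 31.5% for Hist3h2a, which also overlaps exons of Trim17 by 708 bases, 8.54% for Hist1h1c and 0% for Hist2h2be. No source used here says that strand was counted, so reads of Hist1h2ap cannot be told from those of Gm44466, which overlaps 138 of its bases on the other strand.

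Between E13.5 and P3 the most abundant H2A gene was lower and the H1 gene Hist1h1c was higher, each in part of the comparisons. These contrasts set ventricles or atria against whole hearts, so that the effect of stage and that of dissection cannot be told apart. The labels carry dates of 2016 for the E13.5 samples of replicates 1 to 3 and of 2018 for those of replicate 4. All P3 samples carry dates of 2018. Whether the sequencing libraries were made in those years is not known here. Differences are of log2(signal + 1) in limma, tested on both sides, and a gene is called when its p, adjusted by Benjamini-Hochberg over all genes tested, was under 0.05.

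Hist1h2ap (chr13:21833026-21833507, minus strand, 1 exon) encodes an H2A core histone. It had 298, 287 and 335 units in WT ventricles and 153, 184 and 320 in WT atria, against 811, 678, 611 and 796 in WT E13.5 hearts. Every WT P3 library was below every WT E13.5 heart. The difference was -1.23 ± 0.36 (SE) for ventricles (limma, adjusted p = 0.0498) and -1.78 ± 0.36 for atria (limma, adjusted p = 0.00496). In the knockouts Hist1h2ap had 413, 218 and 291 units in ventricles and 494, 388 and 1272 in atria, against 701, 454, 777 and 574 in E13.5 hearts. KO ventricles lay below KO E13.5 hearts without overlap, with a difference of -1.05 ± 0.36 that was not called (limma, adjusted p = 0.135), but was called without both atrial libraries of replicate 3, a fit in which the libraries compared here are the same (-1.05, limma, adjusted p = 0.0129). KO atria overlapped them, with the library of replicate 3 above all. The WT ventricular call was lost without any 1 of 16 of the 20 libraries (limma, adjusted p = 0.0502 to 0.157). The exceptions were WT atria of replicates 1 and 3 and KO atria of replicates 2 and 3. The atrial call of WT held without each library in turn (adjusted p up to 0.0306) and was lost with the E13.5 libraries of 2018 only (difference -1.93, adjusted p = 0.277).

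Hist3h2ba (chr11:58948920-58949533, plus strand, 1 exon), an H2B gene next to Hist3h2a, had 15.1, 0 and 0 units in WT ventricles against 44.9, 58.8, 24.6 and 31.4 in WT E13.5 hearts. The groups did not overlap, and the difference was -3.95 ± 1.02 (limma, adjusted p = 0.0261). In WT atria it had 65.3, 8.85 and 48.9 units, across the range of the WT E13.5 hearts. In the knockouts it had 30, 2.43 and 20.9 units in ventricles and 57.8, 23.9 and 97 in atria, against 27.2, 17.7, 40.5 and 5.70 in E13.5 hearts, which overlapped. The WT call was lost without WT E13.5 replicate 1 (adjusted p = 0.0606), WT E13.5 replicate 2 (0.0614), WT ventricles of replicate 2 (0.146) or WT ventricles of replicate 3 (0.146), all by limma.

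Hist1h4i (chr13:22040636-22041362, minus strand, 1 exon), an H4 gene, had 4.96, 6.64 and 8.81 units in WT atria against 51.7, 81.3, 98.5 and 43.8 in WT E13.5 hearts. The groups were far apart, with a difference of -3.12 ± 0.86 (limma, adjusted p = 0.0359). In WT ventricles it had 32, 7.43 and 2.18 units, again below every WT E13.5 heart, with a difference of -2.79 that was not called (limma, adjusted p = 0.0664). In the knockouts the E13.5 hearts were already low, with 5.06, 19.7, 6.04 and 4.28 units, beside 12.6, 1.21 and 6.10 in KO ventricles and 21.3, 48.8 and 10.2 in KO atria. The atrial call was lost without any 1 WT E13.5 heart (limma, adjusted p = 0.0503 to 0.0894) or any 1 WT atrial library (adjusted p = 0.0695 to 0.102).

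Hist1h1c (chr13:23738808-23740367, plus strand, 1 exon) encodes a linker histone H1. In the knockouts it had 287, 390 and 324 units in ventricles and 252, 309 and 249 in atria, against 70.8, 118, 75.1 and 84.1 in E13.5 hearts. Every KO P3 library was above every KO E13.5 heart. The difference was 1.94 ± 0.42 for ventricles (limma, adjusted p = 0.0107) and 1.64 ± 0.42 for atria (limma, adjusted p = 0.0354). In the wild types it had 268, 116 and 370 units in ventricles and 95.7, 155 and 144 in atria, against 146, 145, 196 and 56.1 in E13.5 hearts, and these groups overlapped. The call in KO ventricles was lost without the KO ventricular library of replicate 2 (limma, adjusted p = 0.0602). It was also lost with libraries rescaled to equal totals (difference 1.45, adjusted p = 0.0646). The call in KO atria was lost without KO E13.5 replicates 1, 3 or 4 (adjusted p = 0.0734 to 0.0846) or any 1 KO atrial library (adjusted p = 0.0805 to 0.119), all by limma.

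Counted over the 31 tested members, 2 (6.45%) were called in WT ventricles against E13.5, both lower, beside 5.09% of all genes called, and 2 in WT atria, both lower, beside 5.5% of all genes. In the knockouts 1 member (3.23%) was called in each tissue, higher, beside 2.74% of all genes in ventricles and 2.8% in atria. With the E13.5 libraries of 2018 only, 1 per genotype and assumed to vary like the other groups, none of these calls held (limma, adjusted p = 0.195 to 0.668). The differences then were -1.38 in WT ventricles and -1.93 in WT atria for Hist1h2ap, -3.69 in WT ventricles for Hist3h2ba and -2.55 in WT atria for Hist1h4i. For Hist1h1c they were 1.96 in KO ventricles and 1.67 in KO atria. The shares are near those of all genes and say nothing particular about histone genes. The medians over the tested members were -0.51 in WT ventricles, -0.28 in WT atria, -0.24 in KO ventricles and 0.90 in KO atria. Over all genes they were 0, 0.09, -0.02 and 0.04. Rescaling the libraries to equal totals shifted the median of all genes in both ventricular contrasts, to -0.54 in WT and -0.49 in KO, and the members' medians to -1.12 and -0.68. The WT contrasts share the WT E13.5 hearts and the KO contrasts share the KO E13.5 hearts.

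**Figure D3:**
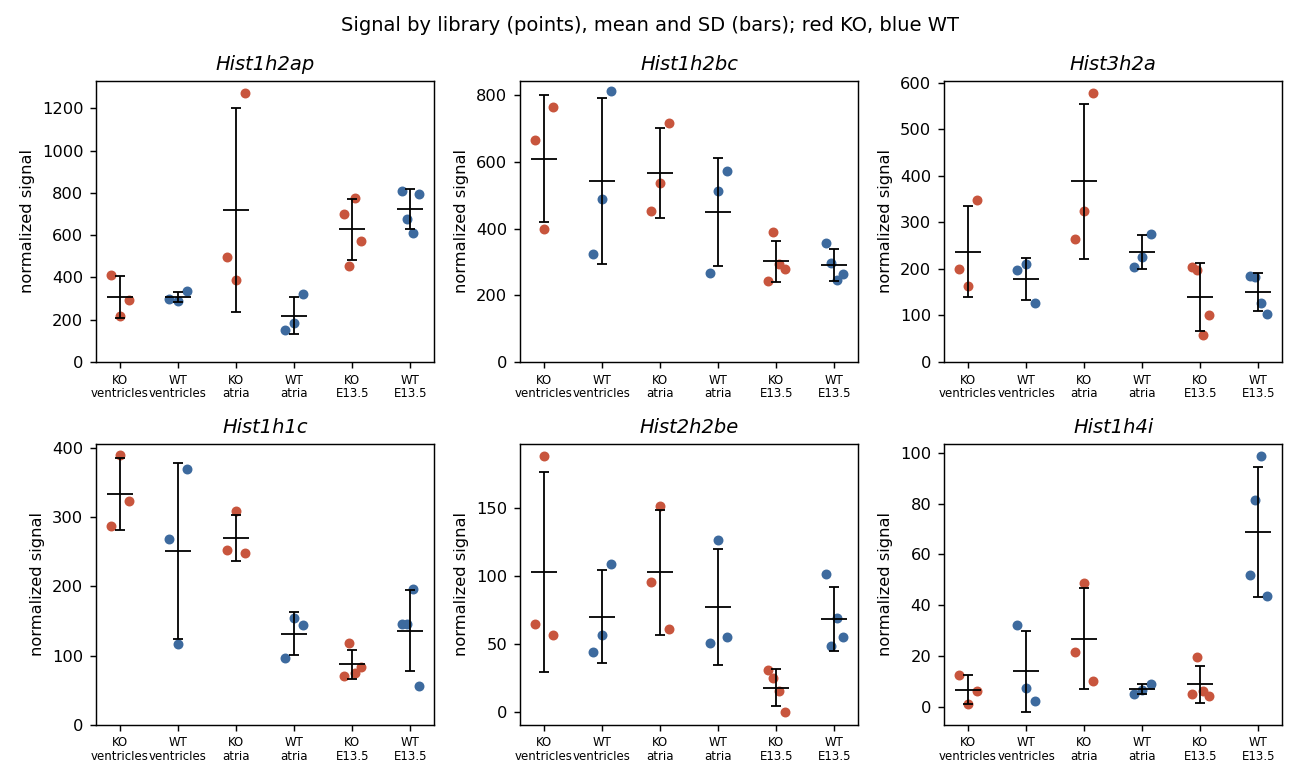
Normalized signal of 6 members in each library (points) with group means and SD (bars), KO in red and WT in blue, for ventricles, atria and E13.5 hearts. Hist1h2ap lies at 611 to 811 units in WT E13.5 hearts and below them in WT ventricles and atria, and Hist1h1c is lower in KO E13.5 hearts than in KO ventricles and atria.

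The other abundant members were not called at either stage. Hist1h2bc (chr13:23684199-23692908, plus strand) had 666, 397 and 765 units in KO ventricles and 452, 535 and 716 in KO atria, against 244, 389, 294 and 279 in KO E13.5 hearts. It had 323, 489 and 814 units in WT ventricles and 267, 511 and 574 in WT atria, against 357, 296, 246 and 263 in WT E13.5 hearts. The P3 levels were mostly above the E13.5 levels, with differences of 0.81 to 0.98 in KO ventricles, KO atria and WT ventricles, and limma called none of them (adjusted p = 0.144 to 0.208). Hist3h2a (chr11:58954685-58956830, plus strand) had 264, 324 and 578 units in KO atria against 205, 198, 57.8 and 99.8 in KO E13.5 hearts. In KO ventricles it had 199, 164 and 348 units. KO atria did not overlap KO E13.5 hearts, and the difference of 1.56 ± 0.43 missed the call (limma, adjusted p = 0.0524). In the wild types Hist3h2a had 197, 211 and 126 units in ventricles and 205, 226 and 276 in atria, against 184, 183, 127 and 104 in E13.5 hearts, with atria above and ventricles across the E13.5 range. Hist2h2be (chr3:96221119-96223738, plus strand) had 95.5, 151 and 60.7 units in KO atria and 64.8, 188 and 56.6 in KO ventricles, against 31, 24.6, 15.5 and 0 in KO E13.5 hearts. Every KO P3 library was above every KO E13.5 heart, and the differences of 3.17 in atria and 3.05 in ventricles also missed the call (limma, adjusted p = 0.0506 and 0.0598). In the wild types Hist2h2be had 50.4, 126 and 54.8 units in atria and 44.2, 56.5 and 109 in ventricles, against 101, 48.4, 68.8 and 54.7 in E13.5 hearts, which overlapped. Hist1h4h, an H4 gene, had 49.3, 66.8 and 54.0 units in KO ventricles against 12, 0, 12.9 and 0 in KO E13.5 hearts, and 42.3, 46.1 and 54.4 in WT ventricles against 0, 8.65, 0.849 and 12.3 in WT E13.5 hearts. Its ventricular groups did not overlap the E13.5 groups in either genotype, and the differences of 3.96 and 3.62 were not called (limma, adjusted p = 0.0826 and 0.0893). In atria Hist1h4h had 14, 0 and 38.9 units in KO and 20.6, 26.5 and 29.4 in WT, between the ventricular and the E13.5 levels in most libraries.

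Members near 0 in some libraries depended on how low values were weighed. With a pseudocount of 5, limma called 3 members in KO ventricles (Hist1h1c, Hist1h4h and Hist2h2be, all higher) and 3 in KO atria (Hist1h1c, Hist2h2be and Hist3h2a, all higher). In WT ventricles it then called 4, namely Hist1h4h, higher, and Hist1h2ap, Hist1h4i and Hist1h2ac, lower, while Hist3h2ba was lost (adjusted p = 0.0543). In WT atria Hist1h2ac, lower, came to Hist1h2ap and Hist1h4i. Hist1h2ac reached 10 units only in 3 WT E13.5 hearts, so that it passed the filter through the group where it is high. Its calls as lower in WT ventricles and WT atria are therefore no support.

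**Figure D4:**
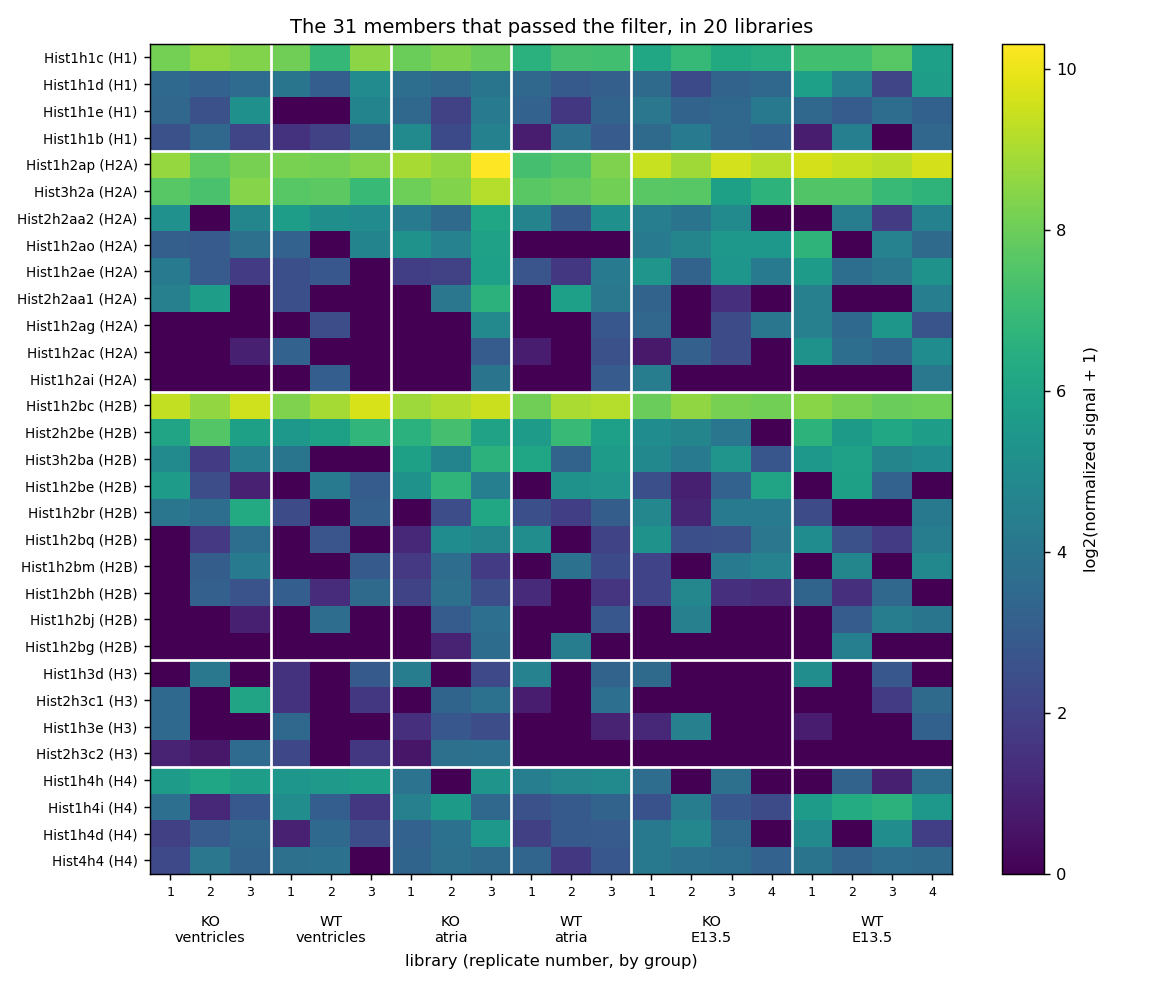
log2(normalized signal + 1) of the 31 tested members (rows, by family and falling mean) in the 20 libraries (columns, by group), dark for 0 and yellow for the highest. Hist1h2ap, Hist3h2a, Hist1h2bc and Hist1h1c are high throughout, and most other rows hold libraries listed at 0.

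The comparison of knockout with wild type, the purpose of the series, gave no called member in any tissue by limma without a replicate block. Each of these comparisons shares its KO and WT libraries with the stage comparisons above. In P3 atria the knockouts had the higher values for most members. Summed over the 56 members, KO atria had 1872, 2091 and 3690 units against 1000, 1419 and 1682 in WT atria. All 3 KO atria were above all 3 WT atria in these units. As a share of library signal they overlapped, with 0.0196, 0.0200 and 0.0559% in KO atria and 0.00888, 0.0125 and 0.0291% in WT atria. Of the 31 tested members, 28 had a positive difference, beside 49.8% of all genes. The median was 0.69 and over all genes 0, or 0.64 and 0.05 with libraries rescaled to equal totals. By limma 4 members (12.9%) had an unadjusted p under 0.05, beside 5.32% of all genes, while 0 were called, beside 0.0276% of all genes. H1 members were positive in 4 of 4, H2A in 8 of 9, H2B in 10 of 10, H3 in 3 of 4 and H4 in 3 of 4. Hist1h2ai, Hist1h2bg and Hist2h3c2, all positive, reached 10 units in only 3 libraries each, KO atria of replicate 3 among them. They passed the filter only with that library, so that their part in the counts of positive members is no support. Hist1h2ap had 494, 388 and 1272 units in KO atria against 153, 184 and 320 in WT atria and was higher in each KO atrium than in any WT atrium. Its difference was 1.58 ± 0.38 (limma, adjusted p = 0.342), and it was called once the replicate number entered the fit as a block (1.58 ± 0.27, limma, adjusted p = 0.0425), where 30 genes in all were called instead of 5. Without the KO atrial library of replicate 3 the difference was 1.07 (adjusted p = 0.388), and without both atrial libraries of replicate 3 it was 1.38 (adjusted p = 0.157), both by limma. Hist1h2ao, a near copy on the same chromosome (chr13:21810465-21810944, plus strand), had 37.1, 22.9 and 58.1 units in KO atria and was listed at 0 in all 3 WT atria. With a floor of 3 reads per WT library, the mean of KO atria was 10.1 times the mean floor. The difference was not called (limma, adjusted p = 0.342, and 0.399 without both libraries of replicate 3). Since 93.5% of the 50-base words of Hist1h2ao occur in other genes, its values also depend on how shared reads were assigned, which the floor does not cover. Hist1h1c had 252, 309 and 249 units in KO atria against 95.7, 155 and 144 in WT atria, which did not overlap, with a difference of 1.06 ± 0.45 (limma, adjusted p = 0.873), or 1.19 without both libraries of replicate 3 (adjusted p = 0.610). Hist2h3c2, an H3 gene, had 0.562, 13 and 13.4 units in KO atria and was listed at 0 in the 3 WT atria. It reached 10 units in 3 KO libraries and in no WT library, so that it passed the filter through the group where it is high and its place among the 4 is no support.

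Several values moved with the atrial difference. Leaving out the KO atrial library of replicate 3 left 19 of 28 tested members positive with a median of 0.50, leaving out both atrial libraries of replicate 3 left 21 of 28 with a median of 0.58, and leaving out WT pup 2 left 22 of 30 with a median of 0.57. Erythroid genes were positive in 9 of 10 (median 1.61), and their sum was 31084 to 133133 units in KO atria against 15591 to 18829 in WT atria, with the highest sum in the KO library of replicate 3 and 41645 in the next. The erythroid median was 1.07 (8 of 10 positive) without both libraries of replicate 3 and 0.66 (7 of 10) without WT pup 2, and with the replicate block Hba-a1, Hba-a2 and Hbb-bs were called. The embryonic globin Hbb-bh1 was at or near 0 in the atria of both genotypes, whereas the adult globins were not. Mitosis genes were positive in 22 of 22 (median 0.87), with Birc5 called (1.5 ± 0.26, limma, adjusted p = 0.0374), and genes of DNA replication and S phase in 26 of 31 (median 0.47) with none called. The Birc5 call held in 11 of 30 alternatives and was lost, among others, without KO atria of replicate 1 (limma, adjusted p = 0.199), KO atria of replicate 2 (0.274), WT atria of replicate 1 (0.168) or WT atria of replicate 2 (0.0993). Of 8 ventricular marker genes 0 were positive (median -1.03), or 4 without WT pup 2 (median 0.08), and their sum was 2679 to 4413 units in KO atria and 2706 to 19020 in WT atria. Of 11 fibroblast genes Lum was called, lower in KO atria (-1.82 ± 0.28, limma, adjusted p = 0.0133), and the sum of the list was 63156 to 64984 units in KO atria against 85490 to 89985 in WT atria. The Lum call held in 24 of 30 alternatives, the block among them, where Dcn and Postn were also called. It was lost without KO atria of replicate 1 (limma, adjusted p = 0.0879), WT atria of replicate 1 (0.124), WT atria of replicate 2 (0.0735) or the whole WT pup 2 (0.133). The Lum call was also lost without a variance trend (limma, adjusted p = 0.160) and with each stage and tissue fitted alone. The part of each of these in the histone values was not tested. Fewer cells of a type and less RNA per cell cannot be told apart in such bulk libraries.

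The list of 6 histone genes with polyadenylated transcripts had a sum of 1072 to 1622 units in KO atria against 628 to 1059 in WT atria, which did not overlap. In atria 5 of its 6 genes were positive for KO minus WT (median 0.54), with none called.

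In E13.5 hearts the sums over the members were 1584, 1516, 1536 and 1302 units in KO hearts and 2255, 1772, 1591 and 1744 in WT hearts. Every KO heart was below every WT heart, by 1584 against 1591 units at the closest. Taken as a share of library signal, the genotypes overlapped. The shares were 0.0179, 0.0164, 0.0175 and 0.0136% in KO hearts and 0.0265, 0.0184, 0.0162 and 0.0199% in WT hearts. Of the tested members 14 were positive and 16 negative (median -0.10, over all genes 0.01), beside 50.9% of all genes positive. By limma 0 were called, beside 0% of all genes. An unadjusted p under 0.05 was found for 3 members (9.68%), all negative, beside 4.12% of all genes. Hist1h4i had 5.06, 19.7, 6.04 and 4.28 units in KO hearts against 51.7, 81.3, 98.5 and 43.8 in WT hearts. No KO heart came near the WT range, and the difference was -3.0 ± 0.79 (limma, adjusted p = 0.684), or -2.86 without the library labelled KO replicate 1. Hist2h2be had 31, 24.6, 15.5 and 0 units in KO hearts against 101, 48.4, 68.8 and 54.7 in WT hearts, also apart, with a difference of -2.63 ± 0.80 (limma, adjusted p = 0.750). Without KO replicate 4, the library at 0, it was -1.48. Hist1h2ac, an H2A gene facing Hist1h2bc, had 0.632, 7.88, 4.31 and 0 units in KO hearts against 37.3, 12.1, 9.34 and 31.4 in WT hearts, with a difference of -2.77 ± 1.00 (limma, adjusted p = 0.938). It reached 10 units in 3 WT E13.5 hearts and in no other library, so that its place among the 3 is no support either. The most abundant member, Hist1h2ap, overlapped between the genotypes at E13.5 (difference -0.23 ± 0.33).

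In P3 ventricles the sums were 1945, 1624 and 2189 units in KO and 1378, 1354 and 1993 in WT, which overlapped. Of the tested members 20 were positive and 10 negative (median 0.44, over all genes -0.01), beside 48.5% of all genes positive. By limma 0 were called, beside 0% of all genes. An unadjusted p under 0.05 was found for 1 member (3.23%), beside 3.90% of all genes. Hist3h2ba had 30, 2.43 and 20.9 units in KO ventricles against 15.1, 0 and 0 in WT ventricles, with overlap (2.39 ± 1.09, limma, adjusted p = 1). Hist1h2br, an H2B gene, had 15.5, 12.2 and 79.1 units in KO ventricles against 4.07, 0 and 8.07 in WT ventricles, without overlap (2.86 ± 1.44, limma, adjusted p = 1). Shared sequence limits the Hist1h2br values, as given above. Hist1h1e, another H1 gene, had 9.67, 4.86 and 34.8 units in KO ventricles against 0, 0 and 23.9 in WT ventricles, with overlap (2.16 ± 1.08, limma, adjusted p = 1). Hist1h2ap averaged 307 ± 98.4 units in KO ventricles and 307 ± 25.1 in WT ventricles (SD, n = 3 each), a difference of -0.04 ± 0.38.

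**Figure D5:**
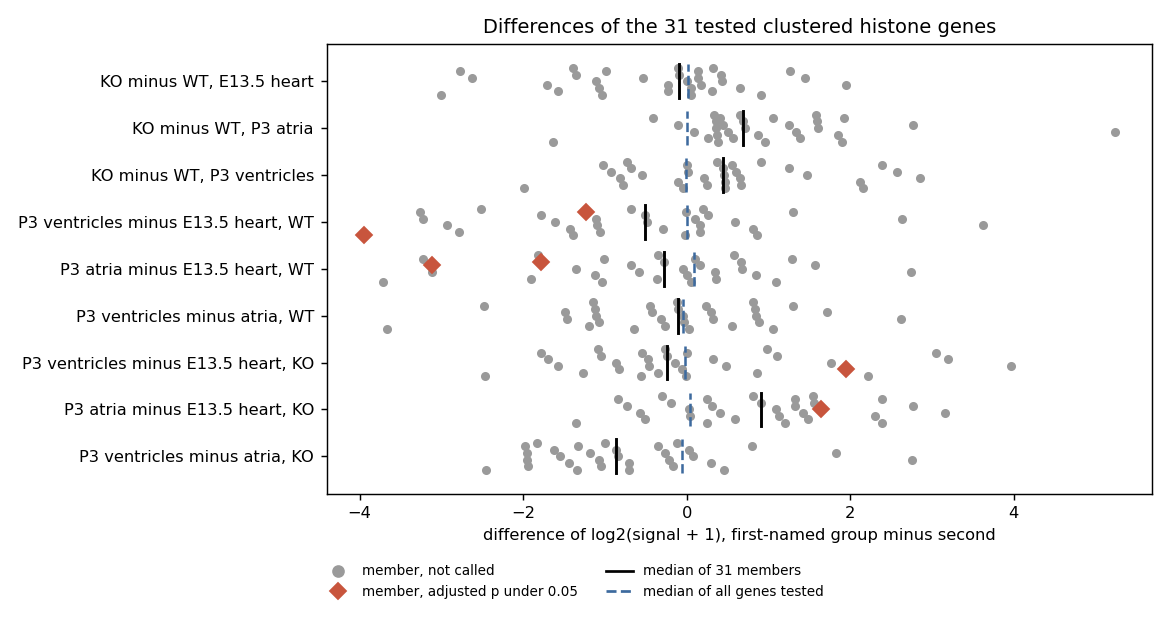
Differences of log2(signal + 1) of the 31 tested members (points) in 9 comparisons, with called members as red diamonds, the members' median as a solid bar and the median of all genes tested as a dashed bar. In P3 atria 28 of 31 points lie right of 0 for KO minus WT, and the red diamonds lie left of 0 in WT and right of 0 in KO for the stage comparisons.

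The knockout difference itself was set against that in another tissue. Between ventricles and atria of the same pups 0 members differed by limma, beside 0% of all genes. Beside 2.59% of all genes, 2 members (6.45%) had an unadjusted p under 0.05. These were Hist1h2ao (-4.57 ± 1.49) and Hist1h2ap (-1.62 ± 0.59), both with a KO difference that was smaller in ventricles. Between P3 ventricles and E13.5 hearts 0 differed, beside 0% of all genes. The 2 members (6.45%) under an unadjusted p of 0.05, beside 4.02% of all genes, were Hist3h2ba (3.38 ± 1.45) and Hist2h2be (3.07 ± 1.22). Ventricles against atria of the same pups gave 0 called members in the knockouts, beside 0.199% of all genes, and 0 in the wild types, beside 0.0883% of all genes. In either genotype 2 members (6.45%) had an unadjusted p under 0.05, beside 9.28% of all genes in the knockouts and 9.87% in the wild types. In the knockouts 24 of 31 members were lower in ventricles (median -0.86), and in the wild types 18 of 31 (median -0.11). Over all genes these medians were -0.06 and -0.04, or -0.60 and -0.62 with libraries rescaled to equal totals.

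The remaining most abundant members of each family lay lower, and none of them was called in a comparison. Hist1h1d, an H1 gene, had 10.6, 8.50 and 11.3 units in KO ventricles against 15.1, 7.43 and 30.5 in WT ventricles, 12.4, 9.97 and 15.3 in KO atria against 9.93, 6.64 and 7.83 in WT atria, and 10.8, 3.94, 8.63 and 9.97 in KO E13.5 hearts against 55.5, 20.8, 3.40 and 52 in WT E13.5 hearts. The KO atria were above the WT atria without overlap, and the spread among WT E13.5 hearts was over 10-fold. Hist1h1e had 10.1, 2.99 and 18.5 units in KO atria against 8.51, 2.21 and 8.81 in WT atria, and 15.8, 8.87, 10.4 and 17.1 in KO E13.5 hearts against 9.89, 6.92, 11.9 and 8.20 in WT E13.5 hearts, with overlap in both.

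Hist2h2aa2, an H2A gene that shares all its words with other genes, had 35.8, 0 and 25.3 units in KO ventricles against 53.6, 34.2 and 30.5 in WT ventricles, 18, 11 and 67.7 in KO atria against 23.4, 6.64 and 35.2 in WT atria, and 20.2, 14.8, 28.5 and 0 in KO E13.5 hearts against 0, 19, 2.55 and 21.9 in WT E13.5 hearts. KO and WT overlapped in each tissue, whereas WT ventricles lay above WT E13.5 hearts without overlap. Hist1h4d, an H4 gene, had 2.90, 6.68 and 9.58 units in KO ventricles against 0.941, 10.4 and 4.35 in WT ventricles, 8.42, 14 and 44.1 in KO atria against 2.84, 6.64 and 6.85 in WT atria, and 17.1, 26.6, 10.4 and 0 in KO E13.5 hearts against 29.7, 0, 32.3 and 2.73 in WT E13.5 hearts. Its KO atria were all above its WT atria, and Hist1h4d, Hist2h2aa2 and Hist1h2ap each had their highest value in the KO atrial library of replicate 3.

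The 3 leading H3 genes were listed at 0 in many libraries. Hist1h3d had 0, 16.4 and 0 units in KO ventricles against 1.88, 0 and 6.53 in WT ventricles, 19.7, 0 and 3.83 in KO atria against 22.7, 0 and 8.81 in WT atria, and 10.8, 0, 0 and 0 in KO E13.5 hearts against 31.9, 0, 5.95 and 0 in WT E13.5 hearts. Hist2h3c1 had 10.6, 0 and 64.4 units in KO ventricles against 1.88, 0 and 2.18 in WT ventricles, 0, 8.97 and 13.4 in KO atria against 0.709, 0 and 12.7 in WT atria, and 0 in all 4 KO E13.5 hearts against 0, 0, 2.55 and 10.9 in WT E13.5 hearts. Hist1h3e had 10.6, 0 and 0 units in KO ventricles against 10.3, 0 and 0 in WT ventricles, 1.68, 5.98 and 4.47 in KO atria against 0, 0 and 0.979 in WT atria, and 1.26, 21.7, 0 and 0 in KO E13.5 hearts against 0.76, 0, 0 and 8.20 in WT E13.5 hearts. The highest libraries differed from gene to gene, and Hist1h3e alone of the 3 had its KO atria all above its WT atria.

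Neighbouring histone genes faced each other in pairs. In 10 pairs, all of an H2A with an H2B gene, the starts lay at most 500 bases apart on opposite strands, so that the DNA between them lies in front of both genes. The levels within a pair were often unequal. Hist1h2ap averaged 1043 units per 1000 bases and Hist1h2br, whose start is 236 bases away, 11.7. The level of Hist1h2br is uncertain, since 99.8% of its 50-base words occur in other genes. The lengths divided out were 482 bases for Hist1h2ap and 1256 for Hist1h2br. Hist1h2bc averaged 384 units per 1000 bases and Hist1h2ac, 251 bases away, 2.52.

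A promoter window of 250 bases before to 50 bases after the start (RefSeq, GRCm38) was matched for 50 of the 56 members. The motif CCAAT (either strand) was in 86% of these windows, in all windows of H1, H2A, H2B and H3 genes and in 22.2% of those of H4 genes (2 of 9), against 37.4% of 32851 mouse promoters. TATAAA was in 50% of the members' windows and 13.6% of all promoters. The octamer ATTTGCAT was in 37.5% of H2A (6 of 16) and 35.7% of H2B windows (5 of 14), in none of the H1, H3 or H4 windows, and in 1.74% of all promoters. The windows of facing H2A and H2B genes, with starts 176 to 302 bases apart, cover much of the same DNA. A site there can count for both genes, so the H2A and H2B shares of any motif are not independent. AAACACA, the H1 box, was in 75% of H1 windows (3 of only 4) and 7.18% of all promoters. The windows of Hist1h2ap, between this gene and its partner Hist1h2br, and of Hist1h1c are printed as examples, the most abundant member and the member called in both KO tissues, with matches to any of the 4 motifs in capitals.
Hist1h2ap, chr13:21833426-21833725, minus strand: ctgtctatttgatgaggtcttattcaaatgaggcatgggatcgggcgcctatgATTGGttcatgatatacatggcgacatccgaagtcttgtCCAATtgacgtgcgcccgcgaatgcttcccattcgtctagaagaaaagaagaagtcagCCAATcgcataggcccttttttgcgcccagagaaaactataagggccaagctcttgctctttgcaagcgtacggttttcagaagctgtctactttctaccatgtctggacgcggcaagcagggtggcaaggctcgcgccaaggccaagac
Hist1h1c, chr13:23738557-23738856, plus strand: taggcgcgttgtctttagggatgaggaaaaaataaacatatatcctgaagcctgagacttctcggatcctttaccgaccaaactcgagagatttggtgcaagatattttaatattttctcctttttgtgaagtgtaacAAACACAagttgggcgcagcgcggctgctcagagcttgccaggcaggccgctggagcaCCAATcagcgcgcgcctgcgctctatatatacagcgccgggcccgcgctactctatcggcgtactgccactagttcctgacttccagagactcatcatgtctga
The Hist1h2ap window held CCAAT on both strands and none of the other 3 motifs, and the Hist1h1c window held CCAAT and the H1 box. A match is a string of letters and does not show that a factor binds there.

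Genes that work with histones were read beside them. SLBP binds the stem-loop, and Slbp was lower in WT atria than in WT E13.5 hearts (-0.85 ± 0.25, limma, adjusted p = 0.0469). It was the only member called among 15 tested genes of histone mRNA transcription and 3-prime processing, where 0 were called in KO atria, KO ventricles or WT ventricles against E13.5. Among 17 histone chaperones Rbbp4, a subunit of several chromatin complexes, was lower in ventricles than in E13.5 hearts in the knockouts and in the wild types, and Nasp, which carries H3 and H4, and Supt16, a FACT subunit, were lower in WT atria. Of 10 replication-independent histone genes H2afz and Cenpa were lower in WT atria. Between the genotypes none of these 3 lists had a called gene in any tissue, and in atria all 10 replication-independent histone genes were positive for KO minus WT (median 0.49). The smallest p there was that of Cenpa, the centromeric H3 (1.05 ± 0.39, limma, adjusted p = 0.793). Beside the counts that follow stand the shares of all genes called, 5.5% in WT atria, 5.09% in WT ventricles, 2.8% in KO atria and 2.74% in KO ventricles. Of 31 genes of DNA replication and S phase 4 were lower in WT atria (Ccne2, Lig1, Mcm3 and Slbp), 2 in WT ventricles (Lig1 and Tyms) and 0 in either KO tissue by limma. Of 22 mitosis genes 12 were lower in WT atria, with Birc5, Ube2c, Cenpe and Nusap1 at the smallest p, 2 in WT ventricles (Ube2c and Birc5), 2 in KO ventricles (Ect2 and Kif11) and 0 in KO atria. The median differences of the S phase genes against E13.5 were -0.67 in KO ventricles, -0.42 in KO atria, -0.72 in WT ventricles and -0.89 in WT atria. Whether these stage differences differ between the genotypes was not tested for atria. Erythroid genes fell in the same comparisons, 3 of 10 in KO ventricles and KO atria (Hba-x, Hbb-y and Hbb-bh1, the embryonic globins) and 6 of 10 in WT ventricles and WT atria, and their part in the histone values was not tested. Cardiomyocyte genes were higher at P3 in 4 of 10 in KO ventricles and 5 of 10 in WT ventricles, among them Ryr2, the calcium release channel, and Tnni3, the adult cardiac troponin I. In atria 3 were higher in either genotype, with 1 lower in WT and 2 in KO, Myh7 among them. Of 9 endothelial genes Npr3, an endocardial marker, was lower in ventricles than in atria in both genotypes. Against E13.5 it was lower in ventricles of both genotypes and, together with Emcn, higher in KO atria. In WT ventricles 3 others, Kdr, Cdh5 and Egfl7, were higher. Fibroblast genes were higher than at E13.5 in 8 of 11 in WT atria, 5 in WT ventricles and 3 in KO ventricles. In KO atria 4 of them were higher and 1 lower. Of 7 tested macrophage genes none was called in any comparison by limma. Of 6 thymus and lung genes 1 reached the level for testing and was not called.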

How the data were processed

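Libraries were made by SMART-Seq2 from RNeasy Micro RNA, per the labels' protocols. Per the submitters' processing notes, mm10, STAR 2.5.1, bcl2fastq 2.2 and DESeq2 were used, in roles they do not state. The sources used here do not give the counting tool or annotation. The authors deposited a single table of normalized signal for 26440 genes in 20 libraries, with no label for the scaling. Values were whole multiples of 1 step per library (within 0.001 reads) for 99.7 to 99.8% of low values of noncoding gene types and 45.1 to 64.6% over all genes, so a count test was not run. The steps gave the estimated reads per library, and floors cover counting error only, since reads of 1 molecule were not collapsed by molecular identifiers.

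Genes with at least 10 units in at least 3 libraries were tested with limma 3.58.1 (R 4.3.3) on log2(signal + 1), which understates changes of low genes, with an intensity trend, 6 groups in 1 fit and Benjamini-Hochberg adjustment. Ventricles and atria were compared on within-pup differences. Alternatives were pseudocounts of 0.5 and 5, no filter, no trend, equal library totals, separate fits, a replicate block, 2018 libraries only at E13.5, leaving out each library, and leaving out pup 2 of either genotype. Leaving out both atrial replicate 3 libraries was chosen after seeing the data. The limma script was tested on simulated data. Same-numbered animals share a litter and a date in the labels, which pairs them. The deviations of same-numbered libraries correlated at 0.212 to 0.638 in atria, 0.0200 to 0.0658 in ventricles and -0.0159 to 0.0159 at E13.5.

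Members and lists were chosen with earlier results of these data known. Named were the 3 most abundant tested members of each family, called members, the 3 members with the smallest p in each genotype comparison, and of each related list the called genes (at most 4) or those with the smallest p. Sequences came from the mm10 reference with GENCODE M21 (transcripts) and RefSeq (promoters). Python 3.11.15, pandas 2.3.3, numpy 2.4.6 and matplotlib 3.10.9 were used.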

Additional observations from a re-analysis of the deposited data

Results flagged for a closer look

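In 37 groups of 4 E13.5 hearts tested for a single library far from the other 3, 4 were found. The limit used gives about 1 in 20 groups by chance for normally distributed values, and these signals stop at 0. A gene above 0 in only 1 of 4 hearts is always found, so the number found cannot be set against that rate. All were high values of H3 or H4 genes of low level. Hist1h4i reached 19.71 units in KO replicate 2, against 4.28 to 6.04 in the other KO hearts. Hist1h3d reached 10.75 units in KO replicate 1 and was listed at 0 in the other KO hearts. Hist1h3e reached 21.68 units in KO replicate 2 and 8.204 units in WT replicate 4, against at most 1.26 and 0.76 in the other hearts of each genotype.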

How the results depend on the processing

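The number of members called, out of 2 in WT ventricles against E13.5, was 4 with a pseudocount of 5, 1 with a pseudocount of 0.5 or no filter, 0 with the E13.5 libraries of 2018 only or without WT pup 2, and 4 without both atrial replicate 3 libraries. Of 2 in WT atria, 0 were left with the libraries of 2018 and 1 without WT pup 2. Of 1 in KO ventricles, there were 3 with a pseudocount of 5, 0 with equal totals or without KO pup 2, and 4 without both atrial replicate 3 libraries. Of 1 in KO atria, there were 3 with a pseudocount of 5 and 0 without a variance trend, without KO pup 2 or without both atrial replicate 3 libraries. Leaving out 1 library at a time gave 0 to 3 called in WT ventricles, 1 to 2 in WT atria, 0 to 2 in KO ventricles and 0 to 3 in KO atria. KO minus WT, ventricles minus atria and the differences between effects stayed at 0 to 0.

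With the replicate block 1 member, Hist1h2ap, was called in KO against WT atria, and the block changed no other call of a member in the 3 comparisons of KO with WT, where it was run. The median over members turned to 0.43 in KO ventricles against E13.5 with the libraries of 2018 (1 per genotype, assumed to vary like the other groups), and without single libraries it ran from -0.68 to 0.16. In WT ventricles against atria it turned to 0.36 without both atrial replicate 3 libraries, and without single libraries it ran from -0.17 to 0.38. Without the within-pup pairing 129 genes were called higher and 143 lower there, in place of 0 and 16, and in KO 106 and 113, in place of 14 and 22, with 0 members each. Equal totals turned the split of higher to lower genes to 281 and 1411 in WT ventricles against E13.5 (607 and 315 before) and to 176 and 886 in KO ventricles (324 and 173 before). With the libraries of 2018, Hist2h2be was called in both KO tissues, a call set by the single KO heart left, where it is listed at 0. The causes were not tested. Several H3 and H4 members lie near 0 in many libraries, which limits the precision of their values.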
